A study of Coturnix japonica and Phalacrocorax auritus with 29 samples.

Results

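The splicing and RNA-binding protein families were taken by name from the 2 deposited count tables, 1 per bird species. A row was a member when its protein name began with RNA-binding motif protein (RBM), serine and arginine rich splicing factor (SRSF), heterogeneous nuclear ribonucleoprotein (HNRNP) or splicing factor (SF). RBM5, RBM3 and SRSF5 were left out. In Japanese quail (JQ) 88 of 22845 protein names were members, comprising 36 RBM, 8 SRSF, 24 HNRNP and 20 SF names. In double-crested cormorant (DCCO) 86 of 21547 names were members, comprising 36 RBM, 8 SRSF, 24 HNRNP and 18 SF names. The rule was written on names only, but it was set with earlier results of these data known.

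The data were 29 RNA-seq libraries of embryonic liver, each from an individual liver sample. Chlorpyrifos, an organophosphate insecticide that inhibits acetylcholinesterase, was given in ovo, by injection into the air space of fertilized eggs, which were then incubated at 37 °C and 60% humidity. Control eggs of both species received DMSO. Nominal doses in the labels were 0.4, 4 and 40 µg/g egg, without a tie to the groups named medium and high; the high dose was set for each species from its own mortality data. The JQ groups were control, medium dose and high dose with 5 livers each, labelled as embryo day 9 except for control replicate 5, which was labelled day 16. The DCCO groups were control with 4 livers, medium dose with 5 and high dose with 5, all labelled day 16. No strain or genotype was given for either bird. Species and embryo day were therefore almost wholly confounded and cannot be told apart.

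The libraries held 11548222 to 27778954 counts in JQ and 9890108 to 21976904 in DCCO. All 8 hepatocyte markers looked for were detected in each species. Their summed level ran from 106302 to 275073 CPM (read count scaled to library size with TMM factors) in JQ and from 101485 to 188044 CPM in DCCO. In quail the high dose group had the lowest median, at 156690 CPM against 231647 in the controls. Its livers, at 106302 to 196440 CPM, lay below the lowest control (213728) and overlapped the medium dose livers (164319 to 275073). In DCCO the high dose group had the highest median, at 168110 CPM against 141836 in the controls, and these groups overlapped. The part of these levels in the results was not tested. Among JQ libraries, high dose replicate 1 held 1208 CPM of the kidney transporter SLC34A1, against 11.3 to 32.4 CPM in the other 4 high dose livers and 1.77 to 5.35 CPM in the 10 control and medium dose livers, so that every high dose liver lay above the rest. The 3 kidney markers looked for summed to 1215 CPM in high dose replicate 1, so nearly all of this was SLC34A1. In DCCO livers SLC34A1 measured 25.2 to 265 CPM. JQ medium replicate 1 was highest in muscle markers, at 69.8 CPM. In DCCO every control column carried the prefix CE2 and every exposed column the prefix CE5, so what that prefix stands for and exposure cannot be told apart. Each DCCO column name also holds the number 6, 11 or 12, whose meaning the labels do not give; it is called the column number. One DCCO control column matched no numbered title and is called the unnumbered control.

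Introns are removed from pre-mRNA by the spliceosome, whose U2 snRNP carries the SF3A and SF3B protein complexes that hold the branch site. SR proteins such as the SRSF family bind exonic enhancers and promote inclusion of the exon, and many hnRNPs bind silencers and oppose it. Many of these proteins control the splicing of their own transcripts, so their mRNA levels are normally held within narrow limits. RBM proteins are a looser group, named for a shared RNA-recognition domain, which includes general spliceosome components and regulators active in muscle, germ cells or blood.

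After a filter on low counts, 78 members were tested in each species: in JQ 33 RBM, 8 SRSF, 23 HNRNP and 14 SF names, and in DCCO 35, 8, 22 and 13. The 10 untested JQ names were HNRNPK-like, RBM44, RBM46, RBM5-like, SF1-like, SF3A3-like, SF3B4-like, SF3B5-like, U2AF65-like and YJU2-like, of which none exceeded 17 counts in a library. The 8 untested DCCO names were the -like entries of HNRNPA1, HNRNPK, RBM5, SF1, SF3A2, SF3A3, SF3B4 and SF3B5, with at most 7 counts. No member passed an adjusted p under 0.05 by edgeR's quasi-likelihood test in any of the 6 dose comparisons.

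In JQ livers at the high dose, 0 of 78 members were called against control, where 3.56% of all 14927 features were called. Unadjusted p was under 0.05 for 4 members, which was 5.13% of them against 16.6% of all features. The median log2 fold change of the members was -0.01, beside 0.01 over all features, and 68 members (87.2%) lay within 0.2 log2 units of no change against 56.8% of all features. These shares were not matched on level: 63 of the 78 members but 8706 of the 14927 features had a mean log2 CPM above 3. At the medium dose 0 members were called and percent called over all features was 0; 2 members (2.56%) and 4.33% of all features had an unadjusted p under 0.05. High against medium gave 0 members against 1.89% of all features, and 5 members (6.41%) against 13.4% before adjustment. The 2 JQ comparisons with control share the same 5 control livers.

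In DCCO livers at the high dose, 0 members were called by edgeR, where 0.0343% of all 14579 features were called. Here 8 members (10.3%) had an unadjusted p under 0.05 against 5.33% of all features. The median was 0.01 on the log2 scale beside -0.01 over all features, and 62 members (79.5%) lay within 0.2 of no change against 68.5%, again without matching on level. At the medium dose 0 members and 0.048% of all features were called, and before adjustment 5 members (6.41%) and 5.71% of all features. High against medium gave 0 members and 0% of all features, with 2 members (2.56%) and 3.26% before adjustment. DESeq2, run as another test, called 3 members at the high dose and 1 at the medium dose in DCCO. It called 1 member in JQ high against medium. These members are named below. The share of all features that DESeq2 called is not given here, so these counts cannot be set against the edgeR shares. The DCCO comparisons with control share the same 4 control livers.

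**Figure D1:**
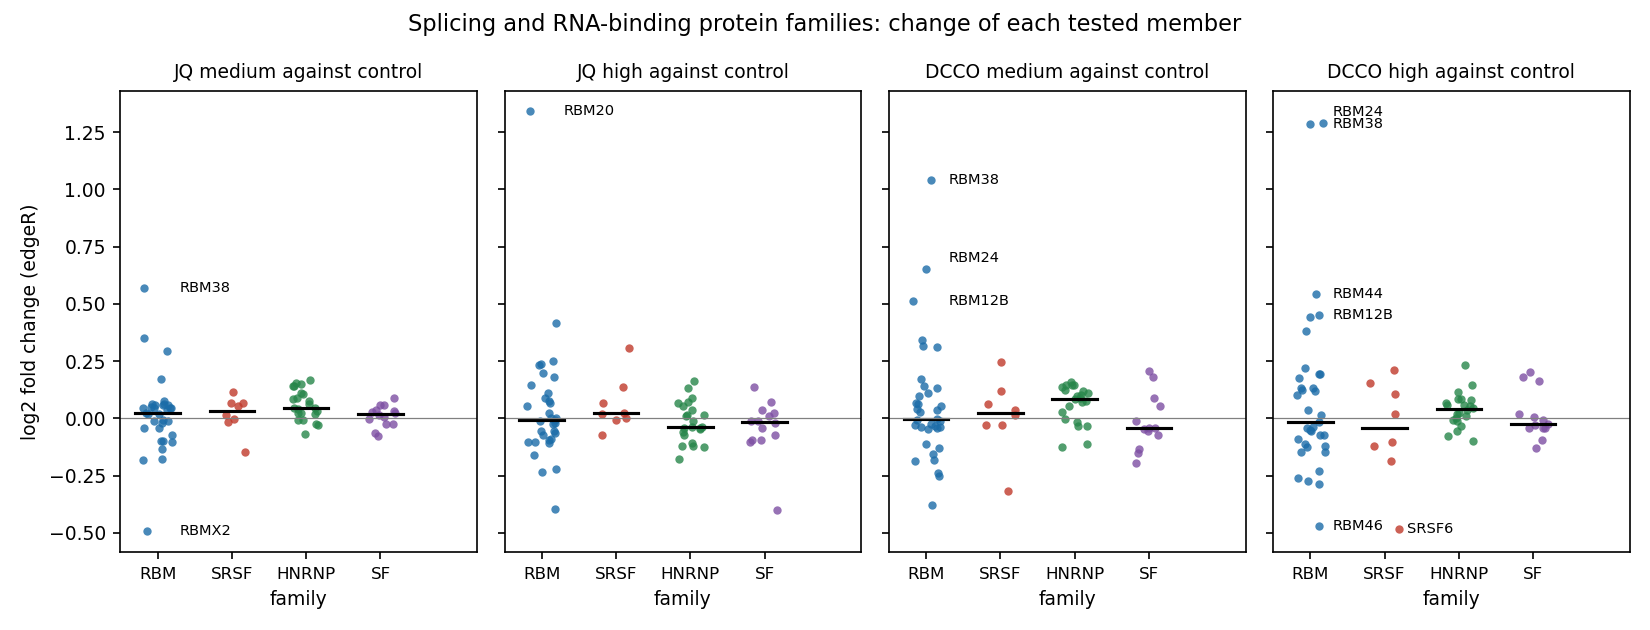
Log2 fold change (vertical axis, edgeR) of each tested member in the 4 comparisons with control, grouped by family; each point is 1 protein name and the black line the family median. Most members lie close to 0, while RBM20 in JQ at the high dose (1.34) and RBM24 and RBM38 in DCCO at the high dose (1.29 each) stand farthest out.

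Among the SR proteins, SRSF6 had the smallest p of any member in DCCO. SRSF6, also known as SRp55, binds exonic enhancers and regulates alternative exons. In DCCO controls SRSF6 measured 115.2, 138.8, 146.2 and, in the unnumbered control, 143.0 CPM. The medium dose livers measured 107.2, 115.3, 105.5, 105.0 and 112.7 CPM. The high dose livers measured 84.1, 100.3, 96.7, 98.2 and 106.3 CPM. All 5 high dose livers lay below all 4 controls, while medium replicate 2 lay just above control replicate 1. The log2 fold change was -0.48 ± 0.10 (SE) at the high dose with an edgeR adjusted p of 0.0925, and -0.32 ± 0.10 at the medium dose with 0.545. DESeq2 gave an adjusted p of 0.00021 for SRSF6 at the high dose, and edgeR gave 0.0405 without control replicate 1, the lowest control. Of 24 alternative fits (edgeR, DESeq2 or limma voom), 3 gave SRSF6 an adjusted p under 0.05, and the highest was 0.639. These are shares of a library from a mixed tissue, in which fewer cells of a type and less RNA per cell cannot be told apart.

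In JQ, by contrast, SRSF6 did not separate by dose. The control livers measured 77.2, 79.9, 84.4, 90.1 and 92.5 CPM, the medium dose livers 83.5, 80.8, 83.8, 79.4 and 91.9 CPM, and the high dose livers 69.0, 101.5, 88.3, 90.8 and 94.0 CPM. The 3 groups overlapped, and high dose replicate 1 was the lowest library and high dose replicate 2 the highest. The log2 fold change of SRSF6 was 0.07 ± 0.09 at the high dose (edgeR adjusted p = 0.805). A second DCCO row, spelled with a slash and outside the families as defined, also named SRSF6; it stood at 2.47 ± 0.59 CPM (SD, n = 4) in controls and 3.63 ± 0.70 CPM (n = 5) at the high dose. With both spellings summed, the DCCO change was -0.46 with an edgeR adjusted p of 0.14.

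**Figure D2:**
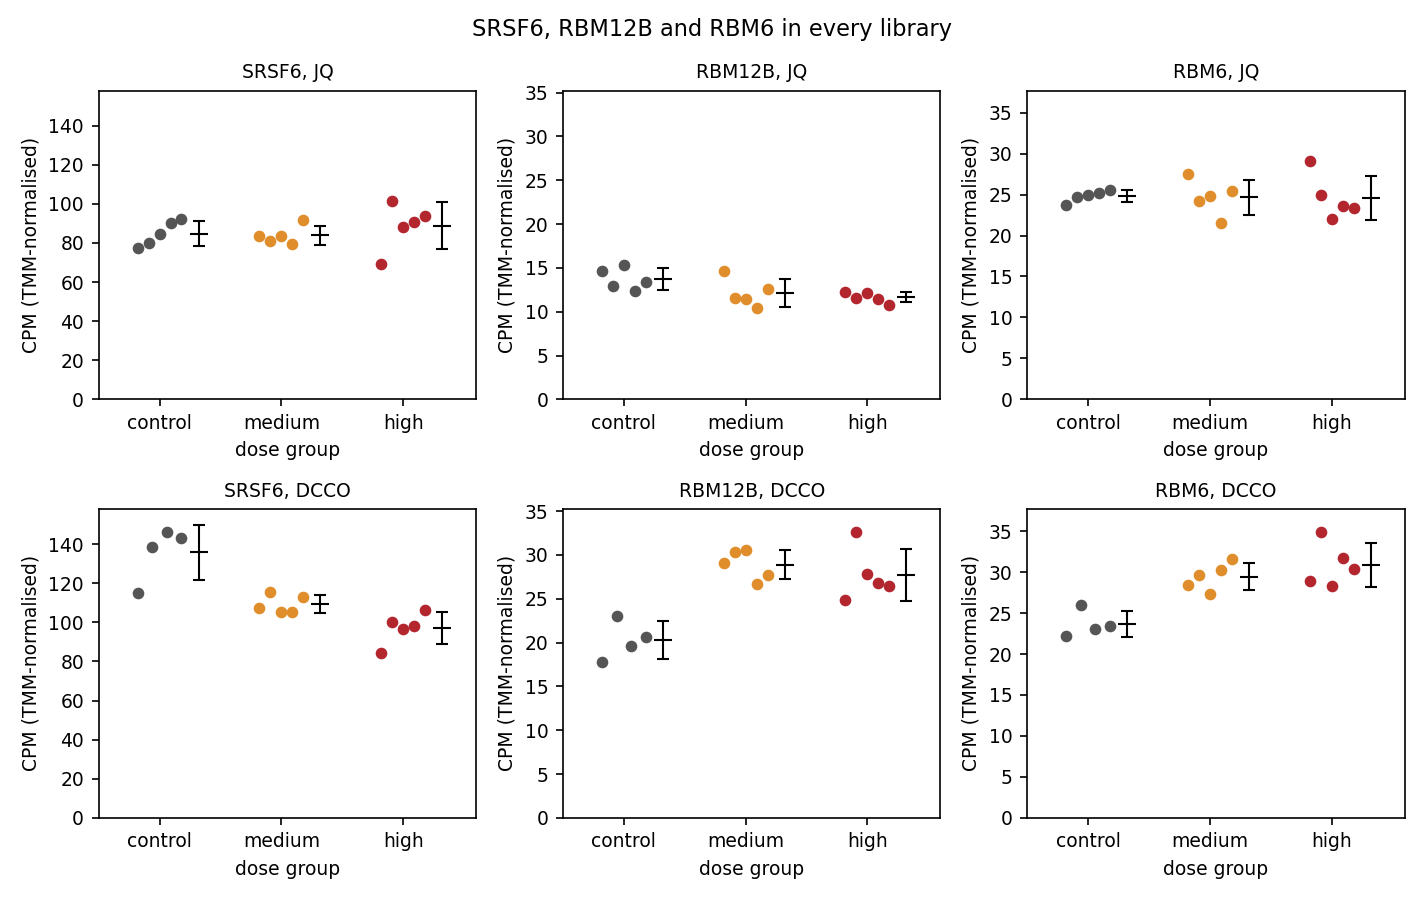
TMM-normalised CPM (vertical axis, from 0) of SRSF6, RBM12B and RBM6 in every JQ library (top) and DCCO library (bottom) by dose group; each point is 1 liver and the bar the mean ± SD of 4 or 5 livers. In DCCO the high dose livers lie below the controls for SRSF6 and above them for RBM12B and RBM6, and in JQ the groups of SRSF6 and RBM6 overlap.

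None of the other 7 SRSF names was called in either bird. SRSF1, the founding SR protein, measured 83.0, 83.7, 72.8, 80.5 and 75.9 CPM in JQ controls and 74.4, 88.0, 68.9, 72.0 and 73.0 CPM at the high dose, a log2 fold change of -0.07 ± 0.08. In DCCO, SRSF1 measured 47.2, 72.3, 63.6 and 68.1 CPM in controls and 73.9, 72.4, 76.0, 75.7 and 74.2 CPM at the medium dose. The medium dose livers of DCCO were all above the controls by 0.25 ± 0.12 on the log2 scale (edgeR adjusted p = 0.859), while control replicate 1 stood apart at the bottom. SRSF3, a small SR protein that also takes part in mRNA export, had a log2 fold change of -0.01 ± 0.09 in JQ and -0.18 ± 0.11 in DCCO at the high dose. SRSF2, which activates exons from the nucleoplasm and does not shuttle, had a log2 fold change of 0.02 ± 0.10 and -0.12 ± 0.11.

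SRSF4, a larger SR protein close to SRSF6 in sequence, was the SRSF name with the smallest p in JQ at the high dose. It measured 4.26, 4.83, 3.79, 4.09 and 3.90 CPM in JQ controls, 2.77, 5.05, 4.50, 3.56 and 2.88 at the medium dose, and 4.94, 4.28, 5.01, 5.40 and 6.18 at the high dose. Each high dose value but that of replicate 2 exceeded every control. The SRSF4 log2 fold changes were 0.31 ± 0.17 against control and 0.45 ± 0.17 against medium, with edgeR adjusted p of 0.401 and 0.238. SRSF10, which turns from activator to repressor of splicing when dephosphorylated, differed by 0.14 ± 0.09 in JQ at the high dose. In DCCO, SRSF10 was lower at the high dose than at the medium dose in all 5 livers against all 5 (20.9 to 23.7 against 23.8 to 27.7 CPM), by -0.22 ± 0.09 (edgeR adjusted p = 1.0). Over all features, 0.905% had high and medium dose groups in DCCO that did not overlap, and 0.398% were lower at the high dose in this way. SRSF10 was the single member, 1.28% of the members tested. Under RLE factors, or without DCCO control replicate 1 or 2, no member was of this kind, and leaving out medium replicate 4 or 5 or high replicate 1, 2, 3 or 5 gave 2 to 4. The share of all features under these settings was not counted.

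Of the 4 families, the hnRNPs had the largest share of names near no change at the high dose. In JQ at the high dose all 23 tested names lay within 0.2 log2 units of no change, between -0.18 and 0.16, and in DCCO 21 of 22 did, between -0.10 and 0.23. The SF names came close, with 13 of 14 in JQ and 12 of 13 in DCCO. These shares were not matched on level. HNRNPA1, which opposes SR proteins at many exons, measured 108.8, 110.0, 118.6, 113.1 and 117.0 CPM in JQ controls and 117.3, 133.7, 115.6, 128.2 and 127.1 CPM at the high dose. These groups overlapped, and the log2 fold change was 0.13 ± 0.07 (edgeR adjusted p = 0.348). At the medium dose it was 0.15 ± 0.07 (0.999). In DCCO, HNRNPA1 had a log2 fold change of 0.05 ± 0.12 at the high dose and 0.12 ± 0.12 at the medium dose.

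HNRNPC, which binds uridine tracts and packages nascent transcripts, was the member with the smallest p in JQ at the medium dose. It measured 42.8, 40.8, 38.8, 43.4 and 42.8 CPM in JQ controls, 44.3, 45.5, 49.3, 46.2 and 49.3 at the medium dose, and 39.0, 43.0, 36.2, 41.5 and 40.7 at the high dose. All 5 medium dose livers lay above all 5 controls and all 5 high dose livers. HNRNPC had a log2 fold change of 0.17 ± 0.07 at the medium dose against control (edgeR adjusted p = 0.999) and of -0.23 ± 0.07 from medium to high (0.114; 0.0249 by DESeq2). DESeq2 was the only 1 of 24 alternative fits under 0.05 for HNRNPC from medium to high. A row named HNRNPC-like followed the same order, with 16.6 to 18.9 CPM in controls, 18.9 to 21.4 at the medium dose and 16.5 to 18.9 at the high dose; reads of the pair could be split between the names, so the rows are not independent. HNRNPC and HNRNPC-like were the 2 members (2.56%) whose JQ medium and control groups did not overlap, against 0.891% of all features, of which those higher at the medium dose were 0.489%. HNRNPC was the 1 member (1.28%) in high against medium, against 2.93% of all features in either direction and 1.15% lower at the high dose. The first count was 1 under RLE factors or without medium replicate 3, and the second 2 to 4 without medium replicate 4 or high replicate 1, 2 or 5. No share of all features was counted under these settings. In DCCO, HNRNPC had a log2 fold change of -0.02 ± 0.11 at the medium dose and 0.08 ± 0.11 at the high dose.

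Other hnRNPs, named for their role or rank, gave the following log2 fold changes. HNRNPU, a nuclear scaffold protein that binds RNA and chromatin, had a log2 fold change of 0.16 ± 0.09 in JQ and of -0.05 ± 0.11 in DCCO. HNRNPD, also known as AUF1, which binds AU-rich elements and directs mRNA decay, had a log2 fold change of -0.12 ± 0.10 in JQ and 0.05 ± 0.10 in DCCO, and its second name HNRNPD0 had a log2 fold change of -0.18 ± 0.15 and 0.23 ± 0.18; the DCCO value turned to -0.0280 with the column number as a block. None of these had groups that separated. HNRNPA2B1, which sorts RNA for transport and export, had a log2 fold change of -0.11 ± 0.09 and 0.02 ± 0.10, and HNRNPK, which binds cytidine-rich sequence, of -0.05 ± 0.07 and 0.06 ± 0.12. HNRNPA0, an AU-rich element binder, had a log2 fold change of -0.10 ± 0.09 in DCCO at the high dose. HNRNPU-like-1 was the hnRNP with the smallest p in DCCO at the medium dose, at 0.15 ± 0.09. A second spelling, HNRNPU-like-protein-1, measured 20.6, 20.1, 18.6 and 19.7 CPM in DCCO controls and 21.6, 21.9, 22.1, 20.8 and 20.9 at the medium dose. Its medium dose livers lay just above the controls without overlap, a log2 change of 0.12 ± 0.10.

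RBM12B, a nuclear protein with several RNA-recognition domains, had exposed livers apart from the controls at both doses in DCCO, as did RBM6. The share of all features that lay apart at both doses was not counted. The DCCO controls measured 17.8, 23.0, 19.6 and 20.7 CPM of RBM12B. The medium dose livers measured 29.05, 30.3, 30.6, 26.7 and 27.7 CPM, and the high dose livers 24.9, 32.6, 27.8, 26.8 and 26.4 CPM. All 10 exposed livers lay above all 4 controls, and the 2 dose groups overlapped each other. The log2 fold change was 0.51 ± 0.11 at the medium dose and 0.45 ± 0.11 at the high dose, with edgeR adjusted p of 0.16 and 0.258. DESeq2 gave 0.00325 and 0.0207, and at each dose was the only 1 of 24 alternative fits under 0.05. Within column number 11, medium replicates 1 and 2 exceeded the controls of that number by 0.49 on the log2 scale. Within column number 6 the single high dose library exceeded the single control by 0.48. As all exposed livers lay above all controls, these 2 directions were fixed beforehand, and only their sizes are given. No control had column number 12, so no such comparison was possible there. The column prefix still differed with exposure within numbers 6 and 11. Within column number 6, HNRNPA0, HNRNPD0, SRSF3, SRSF10 and SFSWAP turned from their main high dose direction. The other members compared in this way kept theirs, which for RBM12B, RBM6 and SRSF6 was fixed by groups that did not overlap.

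In JQ the direction of RBM12B was the opposite. The JQ controls measured 14.7, 12.9, 15.3, 12.3 and 13.4 CPM, the medium dose livers 14.6, 11.5, 11.5, 10.4 and 12.6, and the high dose livers 12.3, 11.6, 12.2, 11.5 and 10.8. The high dose livers lay just below the lowest control, and the medium dose livers overlapped the controls. The log2 fold change of RBM12B was -0.24 ± 0.10 at the high dose (edgeR adjusted p = 0.241). RBM12B was the 1 member (1.28%) whose JQ high dose and control groups did not overlap, against 4.9% of all features in either direction and 2.2% lower at the high dose. The count was 2 or 3 without control replicate 2, 4 or 5 or high replicate 1, 2, 4 or 5, and the share of all features in these smaller groups was not counted.

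RBM6, a close relative of RBM5 that regulates alternative exons in human cells, was also higher in every exposed DCCO liver. It measured 22.3, 26.0, 23.1 and 23.4 CPM in DCCO controls, 28.5, 29.6, 27.3, 30.3 and 31.6 at the medium dose, and 28.9, 34.9, 28.3, 31.8 and 30.4 at the high dose. The exposed groups overlapped each other and neither overlapped the controls. RBM6 had a log2 fold change of 0.38 ± 0.09 at the high dose (edgeR adjusted p = 0.304; 0.0297 by DESeq2) and of 0.31 ± 0.09 at the medium dose (0.541). DESeq2 was the only 1 of 24 alternative fits under 0.05 for RBM6 at the high dose. RBM5, which the families as defined leave out, measured 66.5 ± 5.23 CPM (SD, n = 4) in DCCO controls, 118 ± 6.66 (n = 5) at the medium dose and 148 ± 14.8 (n = 5) at the high dose. Whether reads of the 2 similar proteins were exchanged between the names was not tested. In JQ, RBM6 measured 23.7 to 25.5 CPM in controls and 22.0 to 29.1 CPM at the high dose, a log2 change of -0.01 ± 0.09.

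Over the whole table, 1.58% of features had DCCO high dose and control groups that did not overlap, and 2.42% had such medium dose and control groups. At the high dose 4 members (5.13%) were of this kind, with RBM12B, RBM45 and RBM6 higher (3.85% of members against 1.03% of all features) and SRSF6 lower (1.28% against 0.556%). At the medium dose 5 members (6.41%) were, all higher, against 1.36% of all features higher in this way: RBM12B, RBM6, SRSF1, SF3B1 and HNRNPU-like-protein-1. These counts moved when single livers were left out. The high dose count was 8 without control replicate 2 and 11 without high replicate 1. The medium dose count was 10 without control replicate 2, 9 without control replicate 3, 8 without medium replicate 2 and 9 without medium replicate 5. Smaller groups separate more readily by construction. The share of all features in these smaller groups was not counted, so the higher counts are not read as results about the members. RBM45, which binds RNA in the nervous system of mammals, was named after its values were seen. It measured 26.0, 27.8, 21.5 and 27.1 CPM in DCCO controls and 32.3, 28.5, 28.8, 27.9 and 28.8 CPM at the high dose. The gap between the RBM45 groups was small, and the log2 change was 0.19 ± 0.11.

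RBM38 had, with RBM24, the largest log2 fold change among DCCO members. RBM38 binds AU-rich and U-rich elements and, in mammals, takes part in splicing late in red cell development. DCCO controls measured 2.46, 0.77, 1.21 and 2.98 CPM, the medium dose livers 3.10, 3.26, 2.83, 3.45 and 6.29, and the high dose livers 5.31, 3.98, 4.06, 6.02 and 2.69. The unnumbered control lay within the range of the exposed livers and the other 3 controls below it. RBM38 had a log2 fold change of 1.29 ± 0.36 at the high dose and 1.04 ± 0.37 at the medium dose, with edgeR adjusted p of 0.459 and 0.729. The row rested on 11 to 112 counts per DCCO library. In JQ, RBM38 had a log2 fold change of 0.25 ± 0.32 at the high dose and 0.57 ± 0.32 at the medium dose.

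RBM38 was compared with globin transcripts after its values were seen. Avian red cells keep their nuclei and carry globin mRNA into liver samples. The summed erythroid markers ran from 2315 to 8409 CPM in DCCO controls, 5428 to 13124 at the medium dose and 4889 to 14317 at the high dose, and all 18 markers were detected, although the ALAS2 row of the list was at or near 0 in every DCCO library, so that the sum is one of hemoglobin subunits. Across the 14 DCCO libraries, log2 RBM38 and log2 summed hemoglobin subunits had a Pearson r of 0.913 (permutation p = 4e-05, adjusted 8e-05 over 4 relations) and a Spearman rho of 0.815 (permutation p = 0.00074, adjusted 0.00152). Without the 2 libraries farthest from the median globin level r was 0.819. For deviations from group means r was 0.915 (permutation p = 2e-05, the smallest that 100000 permutations can give) and rho 0.82 (0.00076). RBM38 was picked for this comparison, so these p-values do not allow for the choice among 78 members. On deviations from group means RBM38 had the highest r with globin of the 78, and others also followed it: RBM4B (0.741), RBM42 (0.738) and RBM24 (0.70) with positive r, and RBM27 (-0.87), HNRNPU (-0.802) and HNRNPK (-0.713) with negative r. SRSF6, RBM12B and RBM6 had r of -0.441, -0.471 and -0.101. With globin level as a covariate, the RBM38 change at the high dose was 0.61 on the log2 scale (edgeR adjusted p = 0.525), and 1.29 without it. In the same fit the high dose changes were -0.42 for SRSF6 (0.321), 0.54 for RBM12B (0.266) and 0.40 for RBM6 (0.365). The median erythroid sum in DCCO was 6027 CPM in controls, 7166 at the medium dose and 10066 at the high dose. Globin level thus moved with dose, and their parts in the RBM38 change cannot be told apart by this fit.

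The JQ libraries fell into separate globin levels, so an r over all 15 reflects the gap between these levels as well as any relation within them. Hemoglobin subunits stood at 9219 to 10244 CPM in 3 JQ libraries, namely control 4 and medium 3 and 5, and at 3358 to 4948 CPM in the other 12. RBM38 measured 2.49, 3.60 and 4.62 CPM in those 3 and 1.10 to 3.03 CPM in the 12. Within the 12, Pearson r was 0.164 (permutation p = 0.612, adjusted 0.612) and Spearman rho 0.0629 (permutation p = 0.848, adjusted 0.848). For deviations from group means r was 0.317 (permutation p = 0.314, adjusted 0.418) and rho 0.322 (0.31, adjusted 0.413). Without the 2 libraries farthest from the median globin level r was 0.515 for levels and 0.64 for deviations, so these values turned on a pair of libraries. The split was set at the widest gap in globin and left a range of 3358 to 4948 CPM. DCCO was not split, although its lowest library stood at 2315 CPM and the next at 4729. The values within the 12 therefore cannot show that a relation was absent in JQ. Over all 15 JQ libraries RBM38 ranked first of the 78 members by r with globin, at 0.804 for deviations from group means. The r for levels was 0.729. Both include the 3 libraries that stand apart.

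**Figure D3:**
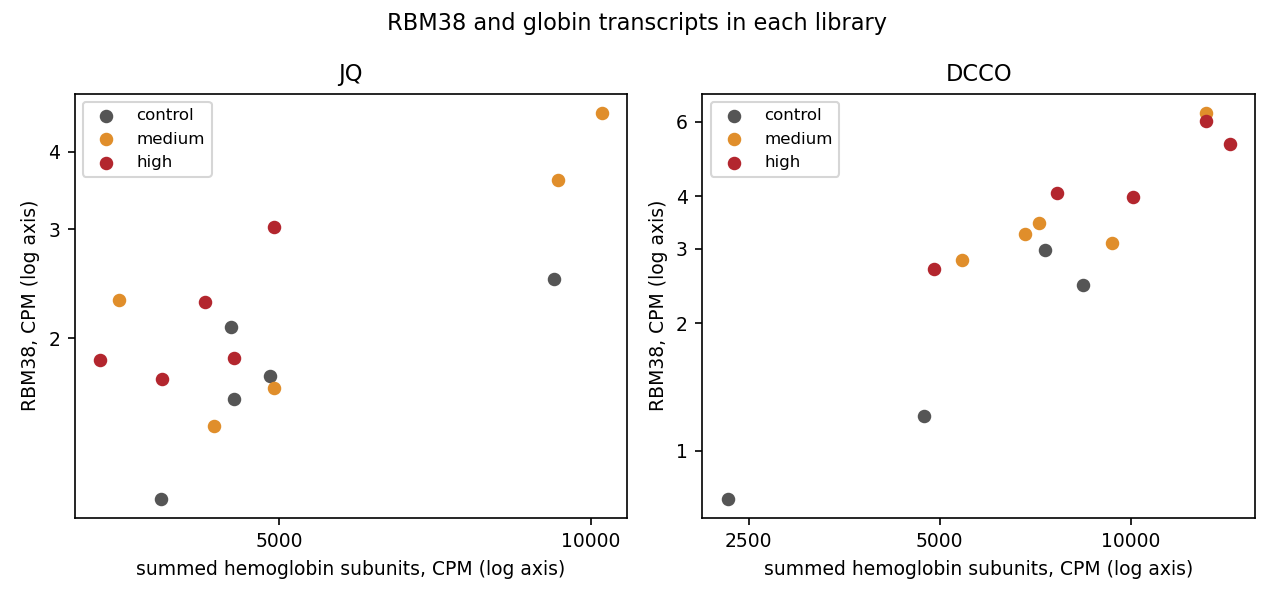
RBM38 (vertical, CPM, log axis) against summed hemoglobin subunits (horizontal, CPM, log axis) in each JQ library (left) and DCCO library (right); points are livers coloured by dose group. In DCCO the points rise together (r = 0.913 over 14 livers), and in JQ 3 libraries with 9219 CPM of globin or more stand apart from 12 with 4948 or less.

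RBM24, which directs muscle splicing in mouse, was near the limit of detection in DCCO. It measured 0.41, 0.21, 0.44 and 0.79 CPM in DCCO controls and 0.94, 1.63, 0.94, 1.72 and 0.20 CPM at the high dose. The groups overlapped through high dose replicate 5. RBM24 had a log2 fold change of 1.29 ± 0.50 in DCCO (edgeR adjusted p = 0.827) and of -0.22 ± 0.27 in JQ at the high dose. RBM14, a nuclear coactivator found in paraspeckles, had a log2 fold change of 0.44 ± 0.17 in DCCO (0.827), and RBM7, an adaptor of the nuclear exosome, of -0.27 ± 0.12 (0.897); both were named because their unadjusted p was under 0.05.

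In JQ at the high dose the RBM names with the smallest p after RBM12B were RBM15B and RBM34. RBM15B, which in human cells helps to place the m6A mark on RNA, measured 26.1, 27.3, 28.5, 29.3 and 29.4 CPM in JQ controls and 27.1, 32.8, 32.1, 32.5 and 40.9 CPM at the high dose. The RBM15B groups overlapped through high dose replicate 1, and the log2 fold change was 0.23 ± 0.10 (edgeR adjusted p = 0.262). RBM34 measured 46.4, 47.4, 65.5, 68.4 and 42.3 CPM in JQ controls, and 76.0, 54.0, 100.2, 78.8 and 51.4 CPM at the high dose. Its spread within each group was wide and the groups overlapped, with a log2 change of 0.42 ± 0.19 (0.267). In DCCO the RBM34 change was -0.02 ± 0.13. RBM28, a nucleolar protein of ribosome assembly, measured 2.30 to 3.22 CPM in JQ controls and 1.67 to 2.41 CPM at the high dose, a change of -0.40 ± 0.18 (0.288), and had a log2 fold change of 0.22 ± 0.09 in DCCO (0.889).

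A pair of JQ members stood out through few libraries. RBM20, the titin splicing regulator of mammalian heart, measured 0.77, 0.45, 1.51, 0.38 and 0.27 CPM in controls, 1.93, 0.52, 0.16, 0.38 and 0.44 at the medium dose, and 6.86, 0.34, 0.19, 0.51 and 0.60 at the high dose. The 1.34 ± 0.91 log2 change of RBM20 came with high dose replicate 1, the library that also held the high SLC34A1 level; medium replicate 1, the next highest, was the library highest in muscle markers. Their part in the RBM20 values was not tested. RBMX2, a component of the spliceosome in human cells, was named after its values were seen. It measured 31.9 and 35.5 CPM in JQ control replicates 3 and 4 and 59.8 in high dose replicate 4, and between 14.6 and 18.1 CPM in the other 12 JQ libraries. In DCCO all 14 libraries measured 11.7 to 18.8 CPM of RBMX2.

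**Figure D4:**
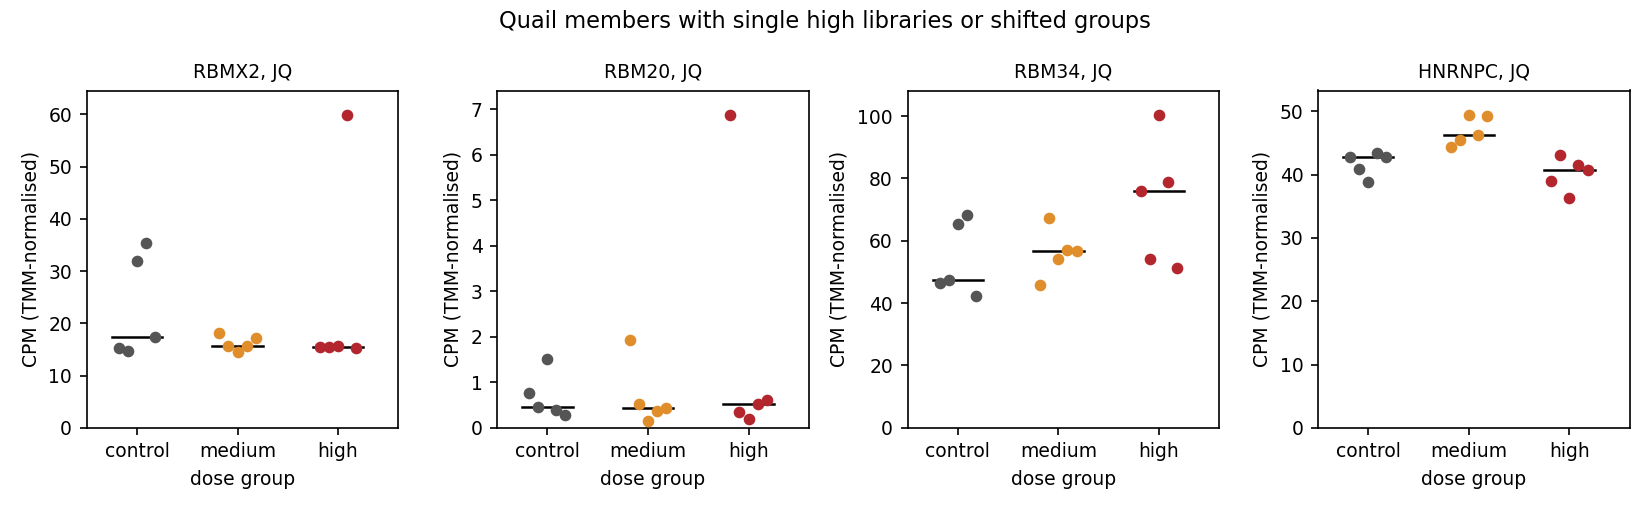
TMM-normalised CPM (vertical axis, from 0) of RBMX2, RBM20, RBM34 and HNRNPC in every JQ library by dose group; points are livers and lines the group medians. RBMX2 is high in 3 livers (31.9, 35.5 and 59.8 CPM) and RBM20 in 1 (6.86 CPM), while HNRNPC is highest in the 5 medium dose livers.

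RBM8A and RBM10, named for their textbook roles, gave small differences at the high dose. RBM8A, also known as Y14, a core protein of the exon junction complex, had a log2 fold change of -0.10 ± 0.09 in JQ and -0.06 ± 0.12 in DCCO. RBM10, a paralogue of RBM5 that mostly promotes exon skipping in human cells, had a log2 fold change of -0.06 ± 0.12 and -0.09 ± 0.12. RBM4 and RBM39 had no row under the names used, although RBM4B did.

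The SF names were mostly subunits of U2 snRNP. SF3B1, the large subunit that clamps the branch site, measured 190.7, 241.9, 239.9 and 237.5 CPM in DCCO controls and 244.3, 259.2, 254.4, 269.7 and 259.9 CPM at the medium dose. The medium dose livers lay just above the controls, of which replicate 1 was far below the rest, and the log2 change was 0.18 ± 0.11 (edgeR adjusted p = 0.879). At the high dose SF3B1 had a log2 fold change of 0.16 ± 0.11 in DCCO and 0.02 ± 0.08 in JQ. SF3A1, which contacts U1 and U2 snRNP, had a log2 fold change of 0.14 ± 0.07 in JQ (0.388) and -0.04 ± 0.09 in DCCO. The other SF3B subunits named by rank in JQ were SF3B4, at -0.10 ± 0.06, and SF3B3, at -0.10 ± 0.10, at the high dose, and SF3B2, at 0.06 ± 0.08, at the medium dose. SF1, which recognises the branch point before U2 snRNP, had a log2 fold change of -0.07 ± 0.09 in JQ and -0.01 ± 0.12 in DCCO.

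SFPQ and SFSWAP were the SF names with the smallest p in DCCO. SFPQ, a paraspeckle protein that also acts in transcription, measured 107, 123, 116 and 125 CPM in DCCO controls, 138, 135, 145, 142 and 120 at the medium dose, and 118, 143, 133, 128 and 148 at the high dose. The SFPQ groups overlapped, through medium replicate 5 and high replicate 1. The log2 fold changes were 0.21 ± 0.09 (edgeR adjusted p = 0.848) and 0.18 ± 0.09 (1.0). SFSWAP, a splicing regulator that controls its own pre-mRNA in Drosophila, measured 20.3 to 26.2 CPM at the medium dose and 23.1 to 31.8 CPM at the high dose in DCCO. These SFSWAP groups overlapped through high dose replicate 1, which was the lowest high dose liver, and the change from medium to high was 0.28 ± 0.11 (1.0).

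Whether the high dose effect itself differed between the species was tested in 1 fit over all 29 libraries and the names found in both tables. Of 80 members tested, 2 (2.5%) were called, where 1.21% of all 15596 names were called. The effect on RBM12B, lower in JQ by 0.24 and higher in DCCO by 0.45 on the log2 scale, differed by -0.70 ± 0.14 (JQ minus DCCO; edgeR adjusted p = 0.00706). The effect on SRSF6, 0.07 in JQ and -0.48 in DCCO, differed by 0.55 ± 0.14 (0.04). The differently spelled SRSF6 rows were not summed for this test. RBM12B kept an adjusted p under 0.05 in all 25 alternative fits, from 0.000157 to 0.0206. SRSF6 kept it in 8 of 25, from 0.00193 to 0.087, and lost it without JQ control 1, 2 or 3, JQ high 2, 3, 4 or 5, DCCO control 2, 3 or the unnumbered control, or DCCO high 1, 2, 3 or 4. RBM6 differed by -0.40 ± 0.12 and RBM28 by -0.63 ± 0.18, each with an adjusted p of 0.0987. The high dose was set separately for each species, embryo day differed along with species, and the column prefix with exposure in DCCO, and their parts cannot be told apart.

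**Figure D5:**
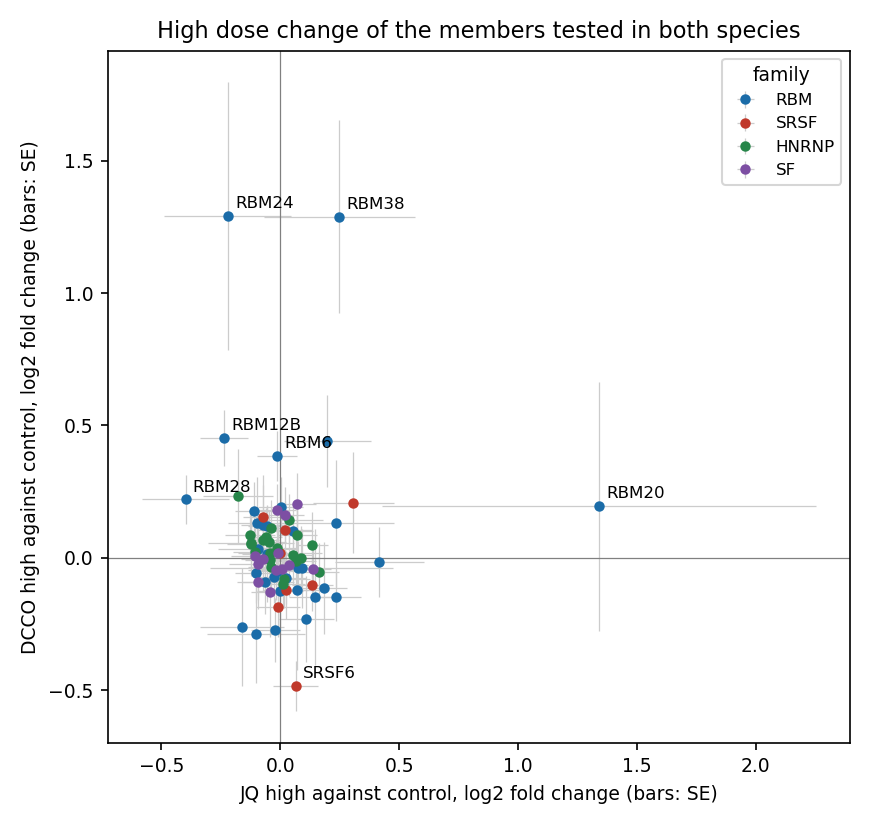
Log2 fold change at the high dose against control in JQ (horizontal) and DCCO (vertical) for each member tested in both species, coloured by family; bars are standard errors from edgeR. RBM12B lies at -0.24 and 0.45 and SRSF6 at 0.07 and -0.48, while most members cluster around 0 on both axes.

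Between livers of the same group the members varied little. The within-group SD of log2 CPM had a median of 0.142 over the 78 JQ members against 0.274 over all tested features, and 0.15 against 0.285 in DCCO. Among features with a mean log2 CPM above 3 the medians were 0.132 against 0.205 in JQ and 0.14 against 0.221 in DCCO. SF3B4 was the steadiest member in JQ (SD 0.0697) and HNRNPL-like in DCCO (0.0604). The most variable were RBM20 in JQ (1.30) and RBM24 in DCCO (0.736). Together the members took 0.447% ± 0.0266 of all counts in JQ controls, 0.461% ± 0.0399 at the medium dose and 0.461% ± 0.0447 at the high dose (SD, n = 5 each), and 0.593% ± 0.102 (n = 4), 0.618% ± 0.0139 and 0.585% ± 0.0536 (n = 5 each) in DCCO. The shares overlapped between the dose groups of each species.

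Likeness between members was measured on deviations from group means. The 5 pairs of JQ members with the highest Pearson r over 15 libraries, out of 3003 pairs, were HNRNPH1 with HNRNPH3 (0.94), HNRNPH1 with HNRNPM (0.918), HNRNPAB with RBM25 (0.893), HNRNPH1 with HNRNPL (0.887) and HNRNPH3 with HNRNPL (0.871). In DCCO, over 14 libraries, they were HNRNPU with RBM27 (0.963), RBM15 with SF3B1 (0.945), RBM12 with RBM33 (0.94), HNRNPU with SRSF1 (0.938) and HNRNPC with SF3B5 (0.933). The points of a pair share library, depth and scaling factor, and the 5 pairs were picked as the highest.

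Unexposed livers of the 2 birds differed for about as large a share of members as of all names, and the members were closer in level. Of 76 members tested in both species, 45 (59.2%) had control ranges that did not overlap, against 57% of 12355 shared names, and 81.6% lay within 1 log2 unit against 64.6%. These shares were not matched on level, and CPM was scaled separately within each species. RBM11 was higher in JQ controls, at 9.88 to 16.1 CPM against 1.27 to 2.30 in DCCO. Higher in DCCO controls by the widest margins, on the log2(CPM + 0.5) scale, were HNRNPU-like-protein-2 (10.8-fold), RBM28 (8.37-fold), SRSF7-like (7.77-fold) and RBM41 (5.20-fold). Counts here were assigned to protein names, and 1 gene's reads could be spread over differently spelled names in each species, as with HNRNPU-like-2 and HNRNPU-like-protein-2. Age differed with species in these controls, day 9 in JQ except 1 liver and day 16 in DCCO.

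Other splicing genes were counted from 5 lists set by protein name. The lists were chosen with earlier results of these data known, so calls in them are not independent of that choice. In JQ at the high dose no gene was called in the lists of spliceosomal snRNP proteins (30 tested), assembly and catalysis factors (31), exon junction and SR-related proteins (15), SR protein kinases (8) or other splicing regulators (28), against 3.56% of all features, and their medians ran from -0.05 to 0.05 on the log2 scale. U2AF2, which binds the polypyrimidine tract, had the smallest p, at 0.42 ± 0.13 (edgeR adjusted p = 0.0822). In DCCO at the high dose 1 gene was called over lists of 29, 30, 12, 7 and 25 tested genes, against 0.0343% of all features, and their medians ran from -0.09 to 0.09. This was RSRP1, an arginine- and serine-rich protein, at 2.0 ± 0.17 at the high dose and 1.37 ± 0.17 at the medium dose (edgeR adjusted p = 2.3e-05 and 0.00285). RSRP1 was 1 of the 12 genes tested in the list of exon junction and SR-related proteins. The SR protein kinase CLK4 had a log2 fold change of 0.67 ± 0.12 in DCCO (0.0744) and of -0.32 ± 0.13 in JQ (0.209) at the high dose. CLK4 is a single pick from the kinase list, whose medians were 0.09 over 7 genes in DCCO and -0.03 over 8 in JQ.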

How the data were processed

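The authors deposited raw read counts, 1 table per species with 1 row per protein name. By the table names the counts came from Seq2Fun with an all-birds database; the sources used here state no settings for it. edgeR is listed in the submitters' processing notes with no role. No genome build was named, so no coordinates or sequences are given. Members and lists were chosen with earlier results of these data known.

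The main test was run in edgeR 4.0.16 (R 4.3.3), with normalisation by TMM, a filter by filterByExpr (minimum count 10, minimum total count 15), 1 robust quasi-likelihood fit per species over its 3 groups, and Benjamini-Hochberg adjustment over all features tested, with a call at an adjusted p under 0.05. The species difference used 1 fit of 18869 shared names. DESeq2 1.42.0, limma 3.58.1 voom, RLE factors, no filter, the 2 groups alone, a replicate block and leaving out each library were alternatives. A fit with globin level, summed names, the column number as a block, and fits without libraries that stand apart were added after seeing the data. The code was tested on simulated data.

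Named were called members, per family the 3 members with the smallest p at the high dose and 1 at the medium dose, the 2 smallest in high against medium, and members of textbook role; others were named after their values were seen. Of the symbols used for the 88 quail names, 63 matched a quail gene table. Nothing in the labels says whether eggs came from separate clutches, so p-values measure the spread between these embryos. PCR reads are not independent molecules, so depth covers counting error only. Dose comparisons share controls within a species.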

Additional observations from a re-analysis of the deposited data

Results flagged for a closer look

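Dixon's test was applied to 213 sets of 4 or 5 livers, 1 for each named member and group, and 15 had a single liver far from the rest. Chance flags about 1 in 20 such groups, and 15 of 213 lies near that rate. The rate does not hold for members named after their values were seen, such as RBMX2 and RBM45. In JQ, SF3B3 was low in control replicate 3 at 115 CPM against 139.2 to 142.1 in the other controls. RBM20 was high in medium replicate 1 (1.93 CPM) and in high dose replicate 1 (6.86 CPM), and RBM14 was also high in high dose replicate 1 (7.33 CPM). SRSF1 (88 CPM) and SRSF3 (52.5 CPM) were both high in high dose replicate 2. HNRNPD (52.2 CPM) and RBMX2 (59.8 CPM) were high in high dose replicate 4.

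In DCCO, SF3B1 was low in control replicate 1 at 191 CPM against 237.5 to 241.9 in the other controls, and RBM34 was low in control replicate 3 (17.9 CPM). HNRNPD0 (20.2 CPM) and RBM38 (6.29 CPM) were both high in medium replicate 5. High dose replicate 1 was high for RBM45 (32.3 CPM) and SF3B2 (153 CPM) and low for SFSWAP (23.1 CPM). Control replicate 1 and high dose replicate 1 are the 2 livers whose DCCO column names hold the number 6.

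The high dose effect differed between JQ and DCCO for RBM12B by -0.696 and for SRSF6 by 0.546 on the log2 scale, each by edgeR's test of the difference itself.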

How the results depend on the processing

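No dose comparison had a member called by edgeR under RLE factors, no filter, the 2 groups alone, the replicate block, the globin covariate or summed names, nor by limma voom. DESeq2 called 1 member in JQ high against medium (HNRNPC), 3 in DCCO high against control (SRSF6, RBM12B, RBM6) and 1 in DCCO medium against control (RBM12B). In DCCO high against control the count was 0 to 1 when single libraries were left out (1 without control replicate 1, SRSF6) and 1 (SRSF6) without the 2 libraries of column number 6. The species difference gave 2 calls, and 1 without the filter, with voom or with the replicate block. It was 1 to 2 with single libraries left out. The shares of all features called by DESeq2 and under the other settings are not given here. These counts are therefore not read as results about the members. With the column number as a block, the DCCO high dose changes of HNRNPD0 and SFSWAP, neither called, turned to -0.0280 and -0.0561. The cause was not tested.

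The labels give no shared source for same-numbered livers, so the main fit did not pair livers by number. Same-numbered deviations correlated from -0.121 to 0.147 over 15 JQ pairs (2 above 0.1). Over 11 DCCO pairs they correlated from -0.119 to 0.385 (6 above 0.1, of which 4 were among the 5 medium and high dose pairs). Whether same-numbered DCCO livers shared a source cannot be told from these values. With the replicate block 0 members were called in each dose comparison. Depth limits members of low level, such as RBM20, RBM24 and RBM38, which rested on few counts.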
